A study of Mus musculus with 36 samples.

Results

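The crystalline silica Min-U-Sil 5 was compared with its own water control in Bhas 42 cells, on 8 of the 36 arrays of the series. The samples were chosen by their titles: 4 had received Min-U-Sil 5 at 20 µg/cm² and 4 had received water (2%) as the control run for that silica. Cells were seeded at 1460 cells/cm², treated on day 4 and collected on day 6, so both groups were exposed for 48 h. Bhas 42 are mouse fibroblasts of the BALB/c 3T3 lineage into which viral Ha-ras was introduced, so every group, controls included, holds that oncogene, and the line serves in assays of cell transformation. The other 7 groups of the study received diatomaceous earth (DE, 5 µg/cm²), the amorphous silica NM-203 (1, 2 or 5 µg/cm²), their water, the phorbol ester TPA or its solvent DMSO. RNA was labelled with Cy3 and hybridised to 1-colour Agilent arrays, 1 array per sample.

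Min-U-Sil 5 is a respirable ground quartz that serves as a reference dust in toxicology. Crystalline silica particles are taken up by phagocytic and other cells, can damage the lysosomes that hold them, and are known in macrophages as activators of the NLRP3 inflammasome. Fibroblasts make and remodel the collagen matrix, and in Bhas 42 cultures a tumour promoter can let cells grow past confluence into foci. Silica exposure is also known for oxidative stress, which is met by genes of glutathione and thioredoxin metabolism under the transcription factor NRF2.

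The cells carried the markers of their labelled type. Of 13 fibroblast markers 12 were well above background on all 8 arrays, Vim, Thy1, Pdgfra and Col1a2 among them. Fcgr1, Ptprc and Cd163 of the macrophage list, Epcam and Cdh1 of the epithelial list, Tek and Tie1 of the endothelial list and Adipoq of the adipocyte list were above background on none. Other members of these lists were above background on all 8 arrays: 6 of 13 for macrophages (Cd14, Cd68, Csf1r, Itgam, Aif1 and Lyz2), 4 of 8 for epithelium (Krt8, Krt5, Krt14 and Cldn4), 3 of 7 for endothelium (Pecam1, Emcn and Vwf) and 5 of 7 for adipocytes (Lep, Plin1, Cidec, Pparg and Lpl). The summed level of the 13 fibroblast markers lay between 700 and 763 on the Min-U-Sil 5 arrays and between 851 and 1236 on the water arrays, in units of 1 for each array's 75th percentile of intensity. The same sum for 13 macrophage markers was 13.3 to 17.1 with Min-U-Sil 5 and 14.5 to 21.6 in water. In these bulk samples fewer cells of a type and less RNA per cell cannot be told apart.

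The 8 arrays lay on a pair of slides that were scanned on the same day. Replicates 1, 2 and 4 of Min-U-Sil 5 and replicates 2 and 3 of water shared slide 4, and replicate 3 of Min-U-Sil 5 and replicates 1 and 4 of water shared slide 5. The first principal component of the 8 arrays held 51.4% of the variance and set the slides apart, and the second held 23.8% and set Min-U-Sil 5 above water within each slide. Arrays of 1 group on 1 slide correlated with r of 0.985 to 0.993 across genes, against 0.971 to 0.980 for arrays of 1 group on different slides. Since each slide held both groups, changes were also computed within slide 4 (3 against 2 arrays) and within slide 5 (1 against 2). The labels tie no array to a particular culture or experiment, and the p-values reflect no more than how these samples vary among themselves. Precision is set by the number of arrays.

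**Figure D1:**
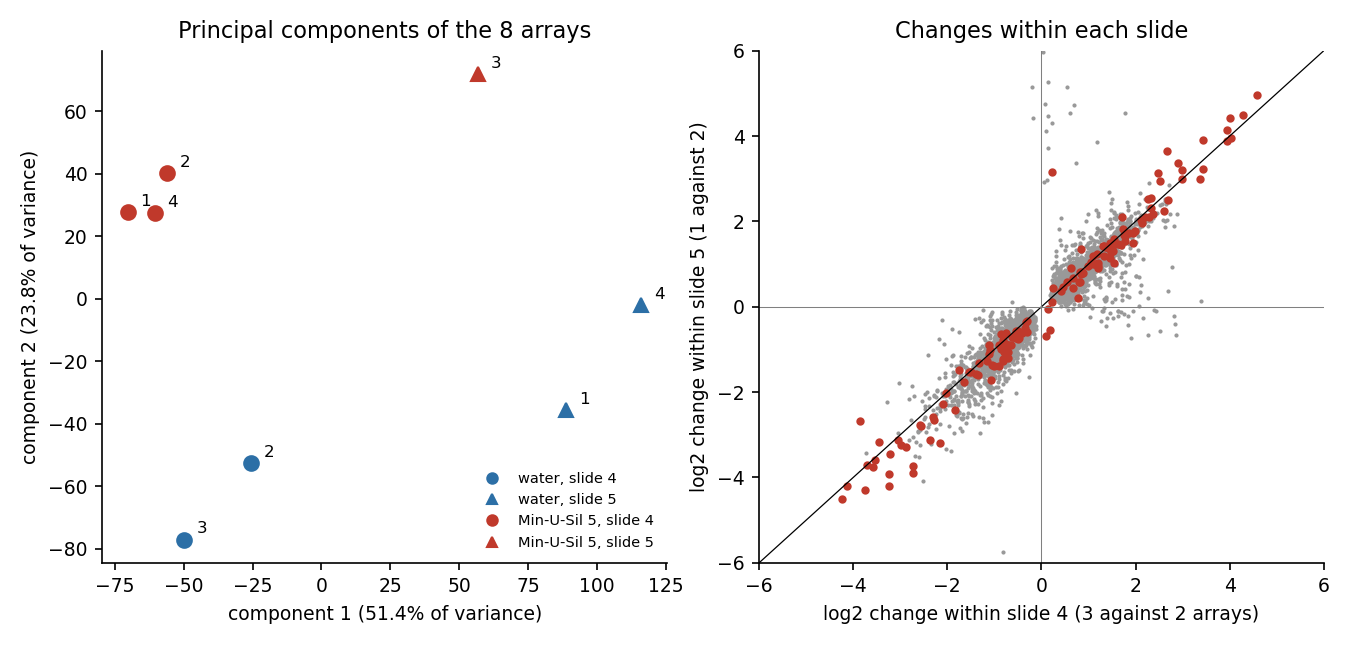
Left: scores of the 8 arrays on the first and second principal components of all genes tested, with the replicate number beside each point, circles for slide 4 and triangles for slide 5. Right: log2 change of Min-U-Sil 5 against water within slide 5 against that within slide 4, for called genes with a symbol (grey) and the genes named in the text (red), with the line of equality. Slides separate along component 1 and treatment along component 2, and most genes lie near the line, with groups of genes near 0 on one slide only.

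Min-U-Sil 5 changed a large part of the measured genes. Of 32492 gene names tested, 3774 were higher (11.6%) and 4529 lower (13.9%) at an adjusted p under 0.05 in limma, together 25.6%. A change of at least 2-fold was fitted for 1066 of the higher and 998 of the lower ones, and the median change of all genes tested was 0.04 on the log2 scale. All 4 Min-U-Sil 5 arrays lay above all 4 water arrays for 3827 genes (11.8%) and below them for 5055 (15.6%). Proliferins, carbonic anhydrase 6, serum amyloid A3 and genes of cell division and ribosome making rose. Genes of the extracellular matrix, its proteases, cell adhesion and particle uptake fell. Calls numbered 8745 when slide entered the fit as a block, and 6000 and 3216 within slides 4 and 5, where the lone Min-U-Sil 5 array of slide 5 is assumed to vary like the others. Of 5742 called genes that have a symbol, 5709 (99.4%) had the same sign within both slides, a description of the arrays that made the calls.

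Levels below are log2 intensities relative to the 75th percentile of the array, given for replicates 1 to 4 in turn, and changes are the difference of group means ± the SE of the fit, with n = 4 arrays a group. Adjusted p-values are limma's with Benjamini-Hochberg adjustment over all genes tested. Levels of different genes are not compared, since each probe has its own brightness.

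The largest rises included proliferins and other secreted proteins. Prl2c3, a proliferin (a secreted glycoprotein of the prolactin family that marks growing 3T3 cells), read 1.38, 1.38, 1.78 and 1.26 with Min-U-Sil 5 and -2.84, -2.87, -3.01 and -2.58 in water. The lowest Min-U-Sil 5 array lay above the highest water array by over 3 log2 units, a change of 4.27 ± 0.20 or 19.4-fold (adjusted p = 1.26e-15). Prl2c5 and Prl2c1 rose 14.9-fold and 14.9-fold, so all 3 measured proliferins rose. Their sequences are close enough for probes to share signal, and which member carried the rise is uncertain. Car6, a secreted carbonic anhydrase, read 0.48, 0.55, 0.71 and 0.50 with Min-U-Sil 5 and -3.86, -3.52, -3.46 and -3.56 in water, again without overlap, and rose 17.9-fold (log2 change 4.16 ± 0.21, adjusted p = 1.18e-14). Saa3, an acute phase apolipoprotein made by stimulated fibroblasts and macrophages, read 0.40, 0.68, 0.78 and 0.38 with Min-U-Sil 5 and -3.54, -3.35, -3.57 and -3.20 in water and rose 15.7-fold (adjusted p = 8.6e-12).

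Atp13a4, a P5-type ATPase, was not well above background on any water array and was at least 5.37-fold higher with Min-U-Sil 5 (log2 change 4.69 ± 0.61 in the fit). The metabolic hormone Fgf21 was at least 3.64-fold higher, the interleukin 1 receptor antagonist Il1rn at least 1.7-fold and the serpin Serpinb9g at least 1.72-fold, each against water arrays on which it was not well above background. Serpinb9g has near-identical neighbours whose transcripts its probe may also bind. Avil, the actin-binding advillin, rose 10.2-fold and varied little, with 0.44, 0.47, 0.43 and 0.49 with Min-U-Sil 5 and -2.68, -2.87, -3.07 and -2.92 in water. Slc7a11, the cystine transporter that feeds glutathione synthesis, rose 7.08-fold, and its water arrays spread widely, with -1.41, -2.24, -1.86 and -1.68 with Min-U-Sil 5 and -5.34, -3.73, -4.76 and -4.65 in water. The remaining genes of the 15 highest were Maats1 (12.2-fold), Dach2 (8.43-fold), Nlrp2 (7.35-fold) and the phosphatase gene Ppef1 (6.36-fold, well above background on 2 of 4 water arrays).

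The largest falls included transporters, enzymes and matrix proteins. Slco2b1, an organic anion transporter, read -5.74, -5.67, -5.49 and -4.86 with Min-U-Sil 5 and -0.95, -1.18, -1.20 and -1.04 in water and fell 20.4-fold (log2 change -4.35 ± 0.26, adjusted p = 4.35e-13). Ggt5, which cleaves glutathione conjugates, read -5.28, -6.43, -4.45 and -5.34 with Min-U-Sil 5 and -1.88, -1.76, -1.89 and -1.67 in water and fell 11.9-fold. Ggt5 was well above background on 3 of the 4 Min-U-Sil 5 arrays. Both genes had every Min-U-Sil 5 array below every water array. Apobec2 was at least 5.18-fold lower, the incretin receptor Gipr at least 3.94-fold and the cartilage matrix protein Ucma at least 3.05-fold, since none of the 3 was well above background on a Min-U-Sil 5 array. S100b, a calcium-binding protein, fell 10.1-fold with -2.25, -2.44, -2.24 and -2.07 with Min-U-Sil 5 and 1.23, 1.02, 0.90 and 1.18 in water. Ptgds, which makes prostaglandin D2, fell 8.34-fold, the transcription factor gene Spib 12.4-fold and the calcium channel Cacna1g 10.2-fold. Chadl, Ces1d and Gdpd2 fell 10.8-fold, 8.82-fold and 8.41-fold.

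**Figure D2:**
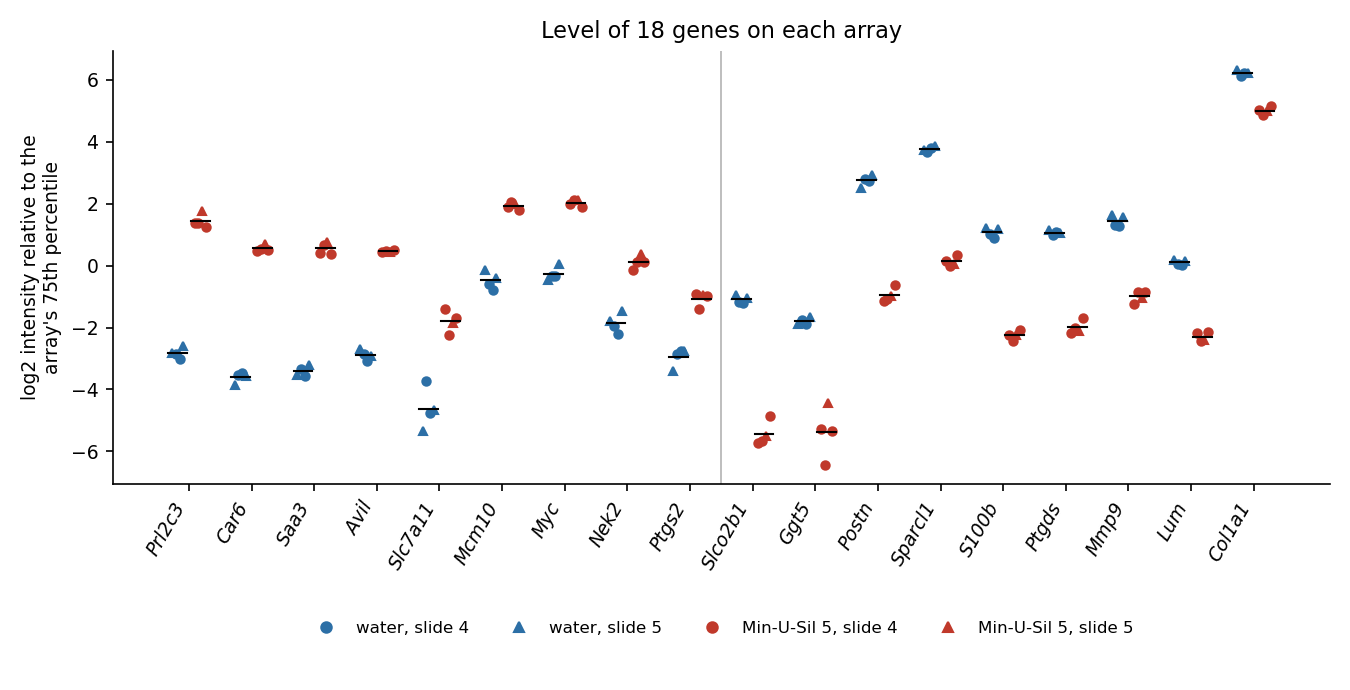
Log2 intensity relative to the 75th percentile of the array for 18 genes, 1 point per array, with water in blue, Min-U-Sil 5 in red, circles for slide 4, triangles for slide 5 and black bars for the group means of 4 arrays. The 9 genes on the left are higher and the 9 on the right lower with Min-U-Sil 5, and in none of them do the groups overlap.

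Cell division genes rose as a whole. The G2 and mitosis list had 46 measured genes and every one of them rose, from 1.15 (Ccnb2, a cyclin of mitotic entry) to 2.09 (Sgo1, which guards sister chromatid cohesion), with a median of 1.59 beside 0.04 for all genes tested. Nek2, a centrosome kinase, read -0.15, 0.13, 0.39 and 0.13 with Min-U-Sil 5 and -1.80, -1.94, -2.22 and -1.47 in water and rose 3.96-fold (adjusted p = 3.58e-10). Nuf2, a kinetochore subunit, rose 3.58-fold, the chromosome motor Kif4 3.4-fold and the spindle factor Tpx2 2.87-fold. The mitotic kinases Aurka, Aurkb and Plk1 changed by 1.96, 1.83 and 1.75 on the log2 scale, and the proliferation marker Mki67 by 1.58. The median of the list was 1.71 within slide 4 and 1.57 within slide 5, and 46 genes were called without the lone slide 5 array of Min-U-Sil 5.

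Of 41 measured genes of DNA replication and S phase 37 rose and none fell, with a median of 1.40. Mcm10, which helps to fire replication origins, read 1.88, 2.05, 1.98 and 1.80 with Min-U-Sil 5 and -0.13, -0.60, -0.78 and -0.40 in water and rose 5.3-fold (adjusted p = 8.61e-12). The helicase subunits Mcm5, Mcm3 and Mcm7 rose 4.26-fold, 3.53-fold and 2.92-fold, and Dtl, which directs the destruction of the licensing factor Cdt1, rose by 2.15 on the log2 scale. Cdt1 itself rose by 2.00. The 4 that did not pass were Tyms (1.37), Ccne2 (1.25), E2f1 (0.26) and Gins3 (-0.36). Among 15 inhibitors and partners of the cyclin-dependent kinases only the pocket protein gene Rbl1 rose (2.84-fold). The inhibitors Cdkn1a, Cdkn1b, Cdkn2c and Cdkn2a and the cyclin gene Ccnd3 fell, by 0.59, 0.58, 0.51, 0.37 and 0.28 on the log2 scale. None of these 5 falls was called within slide 4 or slide 5 alone, 2 were called with arrays scaled on the median and 3 without water replicate 1.

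Promoters of these genes are shown because the members moved together and their sequences hold known cell cycle motifs. The RefSeq table of the build GRCm38.p6 held 32851 promoters, from 250 bases before to 50 after the start, and 38 of the 46 G2 and mitosis genes had 41 of them. The CHR, a motif of late cell cycle promoters, was searched as TTTGAA on both strands and stood in 28 of these 41 (68.3%), against 17.9% of all promoters. The E2F motif, searched as TTTGGCGC or TTTCCCGC on both strands, stood in 12 of 38 promoters (31.6%) of 32 S phase genes, against 1.56% of all. The genes below had the largest rises among members with 1 promoter in the table and a match before the start. Promoters of 1 chromosome were left out of this choice. Capitals mark the matches, and the 250 bases before the start are printed 5′ to 3′ on the gene's strand: Espl1 (chr15:102296043-102296292, plus strand), the protease that parts sister chromatids, and Top2a (chr11:99024190-99024439, minus strand), which untangles DNA, for the CHR, and Dtl (chr1:191575545-191575794, minus strand) and Mcm5 (chr8:75109259-75109508, plus strand) for E2F.
Espl1: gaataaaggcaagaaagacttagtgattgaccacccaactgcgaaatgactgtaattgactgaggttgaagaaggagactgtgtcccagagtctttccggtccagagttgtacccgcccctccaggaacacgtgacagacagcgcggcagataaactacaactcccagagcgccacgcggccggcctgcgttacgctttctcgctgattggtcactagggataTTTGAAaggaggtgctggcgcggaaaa
Top2a: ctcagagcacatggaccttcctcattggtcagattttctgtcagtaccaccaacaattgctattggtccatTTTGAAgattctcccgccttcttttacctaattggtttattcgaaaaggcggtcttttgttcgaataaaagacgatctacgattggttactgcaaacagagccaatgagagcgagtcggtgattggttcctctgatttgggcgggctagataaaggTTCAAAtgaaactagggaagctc
Dtl: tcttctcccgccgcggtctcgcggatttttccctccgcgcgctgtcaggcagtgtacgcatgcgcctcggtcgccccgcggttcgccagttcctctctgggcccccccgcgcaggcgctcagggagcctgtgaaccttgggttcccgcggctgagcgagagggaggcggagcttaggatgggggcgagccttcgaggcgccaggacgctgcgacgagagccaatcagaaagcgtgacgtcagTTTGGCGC
Mcm5: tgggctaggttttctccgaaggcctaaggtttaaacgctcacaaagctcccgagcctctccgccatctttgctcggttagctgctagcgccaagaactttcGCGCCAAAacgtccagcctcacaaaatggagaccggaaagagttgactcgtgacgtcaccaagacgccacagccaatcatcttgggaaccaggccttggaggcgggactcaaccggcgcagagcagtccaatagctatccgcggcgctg
A match describes the letters and is not a measured binding site. Espl1 changed by 1.78 and Top2a by 1.75 on the log2 scale.

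Ribosome making rose beside the cell cycle. Of 30 measured genes 28 rose and none fell, with a median of 1.01. Nop56, a core protein of the box C/D particles that guide methylation of ribosomal RNA, read 4.16, 4.05, 4.22 and 4.06 with Min-U-Sil 5 and 2.63, 2.39, 2.24 and 2.49 in water and rose 3.22-fold (adjusted p = 1.22e-09). Its partner Fbl, the methyltransferase fibrillarin, rose 2.08-fold, and the assembly factors Rrs1 and Noc2l rose 2.66-fold and 2.58-fold. Polr1b and Polr1a, subunits of the polymerase that transcribes ribosomal RNA genes, rose by 1.13 and 0.79 on the log2 scale. Npm1 (0.17) and Exosc2 (-0.17) did not pass. Myc, the transcription factor known to drive ribosome genes, read 2.00, 2.11, 2.12 and 1.90 with Min-U-Sil 5 and -0.47, -0.35, -0.33 and 0.06 in water and rose 4.93-fold without overlap.

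In the list of the unfolded protein and integrated stress response 14 of 35 genes rose and none fell, with a median of 0.23. The members that rose do not include the chaperones of the endoplasmic reticulum. They included enzymes that make serine and pass on its carbon: Psat1 (3.45-fold), Psph (2.8-fold), Shmt2 (3.18-fold), Mthfd2 (3.33-fold) and Phgdh (log2 change 0.78). Psat1 read 4.81, 4.81, 4.80 and 4.67 with Min-U-Sil 5 and 2.97, 3.00, 2.80 and 3.18 in water, with groups well apart. Asparagine synthetase Asns, the cysteine-making Cth, the amino acid transporter Slc7a1 and the regulators Trib3, Chac1, Nupr1, Ppp1r15a and Atf4 also rose, by 1.18, 1.75, 0.86, 1.66, 1.08, 1.02, 0.74 and 0.81. The chaperones Hspa5 (0.02), Hsp90b1 (-0.25), Calr (-0.34) and Pdia4 (-0.43) and the effector gene Ddit3 (0.23) did not pass.

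Of 35 genes of the NRF2 antioxidant list 15 rose and 4 fell (2 with arrays scaled on the median), where 11.6% and 13.9% of all genes did, with a median of 0.27. Enzymes of glutathione supply rose: Gclc and Gclm, the subunits of the rate-limiting ligase, rose 3.19-fold and 1.96-fold, and glutathione reductase Gsr by 0.72 on the log2 scale. Gclc read 1.22, 1.1, 1.30 and 1.09 with Min-U-Sil 5 and -0.46, -0.55, -0.68 and -0.30 in water, with a gap between the groups. The thioredoxin reductase Txnrd1 rose 1.98-fold (adjusted p = 6.89e-07), and Pgd and G6pdx, which supply NADPH, rose by 0.93 and 0.65. Of the glutathione transferases Gsta2 (6-fold) and Gsta3 (5.16-fold) rose while Gstm1, Gstm2 and Gstm3 fell by 0.54, 0.80 and 0.48, and members of each class are alike enough to share probe signal. Hmox1 (0.04) and Nqo1 (0.28), the most used readouts of NRF2, did not pass. An antioxidant response element, searched as TGACNNNGC on both strands, stood in 10 of 36 promoters of the list (27.8%), against 12.4% of all promoters.

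**Figure D3:**
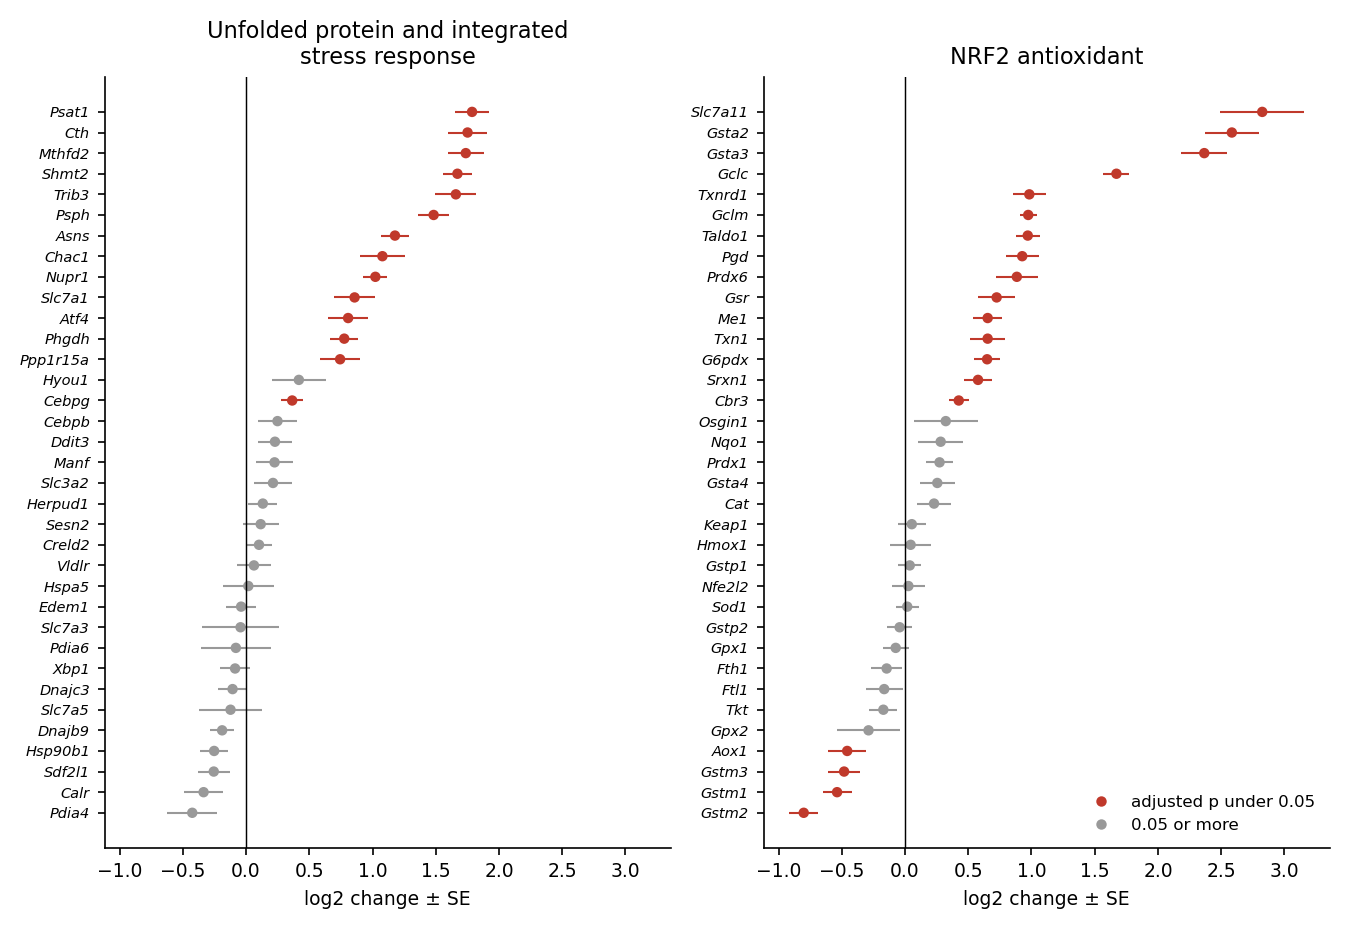
Log2 change of Min-U-Sil 5 against its water for the 35 measured members of each of the stress response list (left) and the NRF2 list (right), with bars for the SE of the fit (4 arrays a group) and red for an adjusted p under 0.05. On the left the enzymes of serine and amino acid supply lie above 0 and the chaperones near or below it, down to -0.43, none of them called. On the right the alpha class glutathione transferases rise while the mu class falls.

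Of 17 heat shock chaperones 8 rose and 4 fell (median 0.26). Hsph1, a partner of Hsp70, rose 2.5-fold and the mitochondrial chaperonin Hspd1 1.99-fold, while the small heat shock protein Cryab fell 1.88-fold and Dnajb4 1.8-fold. Of 7 genes of metallothionein and zinc 1 rose and 1 fell, near the shares of all genes (11.6% and 13.9%). Mt2 rose 1.31-fold and Mt1 fell 1.36-fold, and the other 5 genes of the list did not pass. Neither call held with arrays scaled on the median, and that of Mt1 was lost also without Min-U-Sil 5 replicate 2 or water replicate 1.

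The matrix program of the fibroblasts fell. Of 35 measured genes of collagen and matrix 27 fell and none rose, with a median of -0.84. Postn, periostin, which binds collagen and integrins, read -1.13, -1.07, -0.99 and -0.61 with Min-U-Sil 5 and 2.52, 2.81, 2.75 and 2.93 in water and fell 13-fold (adjusted p = 1.42e-12), and all Min-U-Sil 5 arrays lay far below water. Sparcl1 fell 12.4-fold, the collagen-organising proteoglycan Lum 5.29-fold and Col1a1, the main chain of type I collagen, 2.31-fold, with 5.03, 4.86, 5.00 and 5.15 with Min-U-Sil 5 and 6.31, 6.11, 6.22 and 6.23 in water. Collagens III, V and VI also fell, with log2 changes of -1.39 (Col3a1), -1.37 (Col5a1) and -1.62 (Col6a3). Col1a2 (-0.37), Sparc (-0.37), Eln (0.03) and Fbn1 (0.43) did not pass. The median of the list was -0.78 within slide 4 and -0.94 within slide 5.

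Proteases of the matrix fell with it. Of 19 metalloproteinases and their inhibitors 11 fell and 1 rose, with a median of -0.64. Mmp9, a gelatinase, read -1.24, -0.86, -1.03 and -0.85 with Min-U-Sil 5 and 1.64, 1.31, 1.28 and 1.58 in water and fell 5.45-fold, and the stromelysin Mmp3 fell 4.39-fold. Timp4, an inhibitor, fell 6.3-fold and Adamts4, which cleaves aggrecan, 2.19-fold, while Timp1 rose by 0.40 on the log2 scale, a call lost with arrays scaled on the median and in the fit on the 8 arrays only. The plasminogen activator Plat fell 1.89-fold and the urokinase receptor Plaur rose 1.63-fold. There were 1 rise and 2 falls among 8 genes of the plasminogen system (1 fall with arrays scaled on the median). The rise, and the fall left with that scaling, are about the shares of all genes (11.6% and 13.9%).

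Of 22 adhesion genes 13 fell and 2 rose (median -0.42). Cdh5, an adhesion molecule best known from endothelium, was at least 3.13-fold lower, the collagen receptor Itga10 fell 6.41-fold and Ncam1 2.96-fold. Itgb7 rose 4.56-fold, with 0.19, 0.50, 0.33 and 0.21 with Min-U-Sil 5 and -1.75, -1.89, -2.08 and -1.80 in water, and the gap junction gene Gja1 rose by 1.00. Among the fibroblast markers 8 of 13 fell and none rose (median -0.39), including Fap, a protease of activated fibroblasts that was well above background on 1 Min-U-Sil 5 array, Pdgfrb 1.82-fold, Pdgfra 1.68-fold and Twist2 1.67-fold, while Thy1 (0.01) and Vim (-0.33) did not pass. Contractile genes had 8 falls and 1 rise among 18 (median -0.22): Cnn1, calponin, fell 2.9-fold, Des 1.87-fold and Myh9, non-muscle myosin, 1.38-fold, Tpm4 rose 1.32-fold, and Acta2 was at -0.04. Of the contractile falls 4 were called with arrays scaled on the median and 5 without water replicate 4, and the rise of Tpm4 was lost with that scaling.

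Genes of particle uptake fell. Of 15 scavenger and uptake receptors 9 fell and 1 rose, with a median of -0.65. Mertk, a receptor for dying cells, was at least 3.77-fold lower and its ligand Gas6 fell by 1.81 on the log2 scale. Scara5 read 1.97, 2.00, 2.10 and 2.19 with Min-U-Sil 5 and 3.04, 2.88, 2.90 and 3.03 in water and fell 1.87-fold, Scara3 fell 1.83-fold, and Scarb2, which carries an enzyme to lysosomes, rose 1.46-fold. Marco, a silica receptor of macrophages, did not pass (0.44). Of 42 lysosome genes 11 fell and 2 rose (median -0.23). The membrane protein Lamp2 fell 1.65-fold, the protease Tpp1 1.49-fold and the glycosidase Naglu 1.54-fold. Gpnmb, a glycoprotein of stressed lysosomes, rose 2.41-fold with -1.93, -1.79, -1.76 and -1.73 with Min-U-Sil 5 and -2.87, -3.22, -3.48 and -2.72 in water, and the autophagy receptor Sqstm1 rose by 0.58. Scaling on the median left 7 falls and 1 rise in the lysosome list, and 1 rise was left without Min-U-Sil 5 replicate 2.

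Inflammatory genes did not move as a block. Of 16 genes of the IL-6 family and the acute phase 4 rose and 3 fell: beside Saa3, Il6 rose 2.41-fold, Lcn2 by 1.06 and Saa1 by 0.69, while Orm1 fell 3.26-fold and Il11 by 0.45. Of 14 chemokines 5 rose, the monocyte attractants Ccl7 (2.46-fold) and Ccl2 (1.77-fold), Cxcl10 (2.31-fold), Ccl8 (0.87) and Cxcl12 (0.53), and Cx3cl1 fell 2.32-fold. Ccl7 read 3.55, 3.58, 3.85 and 3.51 with Min-U-Sil 5 and 2.39, 2.22, 2.15 and 2.54 in water, without overlap. Of 21 NF-kB targets and regulators 2 rose and 7 fell, where 11.6% and 13.9% of all genes did. Their median was 0.00, and its sign turned with other scalings. The share of rises among NF-kB genes and that of falls among chemokines were below the shares of all genes. Ptgs2, the inducible cyclooxygenase, rose 3.67-fold and Csf1 by 0.35, while Vcam1 fell 1.86-fold, Tnip1 1.6-fold and the inhibitor Nfkbia by 0.53. The 2 NF-kB rises were 1 with arrays scaled on the median or with normexp.

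The inflammasome list held 5 rises and 3 falls among 14. The cytokine genes Il33 and Il18 fell, Il33 4.02-fold and Il18 2.7-fold, with -0.08, -0.47, -0.40 and -0.11 with Min-U-Sil 5 and 1.18, 1.12, 1.14 and 1.22 in water for Il18. The inflammatory caspases Casp1 and Casp4 rose by 0.70 and 0.69, Nlrp1b by 0.98 and Nlrp1a by 0.48. The redox protein gene Txnip fell 1.52-fold. Nlrp3 (0.50), Gsdmd (-0.04) and the adaptor Pycard (-0.35) did not pass. Prostaglandin genes moved both ways, with 5 rises and 5 falls among 15: beside the cyclooxygenases Ptgs2 and Ptgs1 (0.31), the exporter Abcc4 rose 2.14-fold, while the synthases Ptgds and Ptges fell, Ptges 1.51-fold, and the receptors Ptgir, Ptger1 and Ptger4 fell, Ptgir 6.53-fold. With arrays scaled on the median 3 genes rose in each of these lists.

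Of 24 interferon stimulated genes 9 rose and none fell, with a median of 0.34. Oasl1, which restrains interferon production, rose 3.98-fold, Rsad2, the antiviral viperin, 2.62-fold, the nucleic acid sensor Zbp1 2.14-fold and Oas1a 1.65-fold. Rsad2 read 0.38, 0.49, 0.68 and 0.51 with Min-U-Sil 5 and -0.80, -0.68, -1.33 and -0.70 in water, with the groups apart. Isg15 (0.32), Irf7 (0.38), Ifit1 (0.38) and Irf1 (-0.06) did not pass. The count was 5 with arrays scaled on the median and 3 within slide 5. The promoters of Rsad2 (chr12:26456453-26456702, minus strand) and Oas1a (chr5:120907526-120907775, minus strand) are shown as those of called members with a match to the interferon-stimulated response element, searched on both strands as TTTC, any pair of bases and TTTC again, with the matches in capitals and overlapping ones run together. Of 21 promoters of the list 10 held it (47.6%), against 3.44% of all, and of the 7 promoters of those that rose 2 did.
Rsad2: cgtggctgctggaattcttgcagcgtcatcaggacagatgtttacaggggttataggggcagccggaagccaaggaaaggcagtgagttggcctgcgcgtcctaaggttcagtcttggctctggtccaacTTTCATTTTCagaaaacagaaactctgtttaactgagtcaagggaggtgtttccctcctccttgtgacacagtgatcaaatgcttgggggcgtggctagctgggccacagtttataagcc
Oas1a: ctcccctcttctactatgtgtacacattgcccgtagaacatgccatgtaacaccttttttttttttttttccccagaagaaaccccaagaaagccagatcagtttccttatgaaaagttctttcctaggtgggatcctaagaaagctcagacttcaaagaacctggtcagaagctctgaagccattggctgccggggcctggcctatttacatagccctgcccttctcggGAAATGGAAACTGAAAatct

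Fosl1, Dusp4 and other genes downstream of growth signals rose. Of 23 AP-1 and immediate early genes 6 rose and 3 fell, the falls at about the 13.9% of all genes. Fosl1, a Fos family member downstream of Ras, read -0.14, 0.29, 0.15 and -0.31 with Min-U-Sil 5 and -1.91, -2.59, -2.26 and -2.16 in water and rose 4.67-fold, and Fosl2 rose 1.54-fold and Maff by 1.11 on the log2 scale, while Egr1, Nr4a1 and Klf2 fell by 0.93, 0.96 and 0.34. Fos (-0.18) and Jun (0.25) did not pass. The 3 falls were 1 with arrays scaled on the median, without Min-U-Sil 5 replicate 1 or without water replicate 1. Of 16 outputs of the ERK pathway 7 rose and 2 fell: the phosphatase Dusp4 rose 5.21-fold with -0.55, -0.76, -0.62 and -0.75 with Min-U-Sil 5 and -3.05, -2.99, -2.92 and -3.25 in water, the transcription factor gene Etv4 2.63-fold and the ligand Hbegf 2.14-fold, while the feedback inhibitor Spry2 fell by 0.31 and Dusp6 was at -0.24. The 2 ERK falls were 0 with arrays scaled on the median, and 1 without Min-U-Sil 5 replicate 2, 3 or 4 or without water replicate 1 or 3. Of 32 growth factors and receptors 6 rose and 14 fell (median -0.36). Igf2 read 0.25, 0.41, 0.14 and 0.47 with Min-U-Sil 5 and 2.44, 2.59, 2.35 and 2.38 in water and fell 4.36-fold, Vegfc fell 1.85-fold and Pdgfb 1.89-fold, and Gdf15, a stress hormone, rose by 0.65. The 6 rises were 3 with arrays scaled on the median or without water replicate 3.

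Of 24 genes of TGF-beta and BMP signalling 5 rose and 9 fell (median -0.20). The latent binding protein Ltbp2 fell 2.89-fold, the activin trap Fst 2.05-fold and Tgfb2 1.87-fold, and the repressor Skil rose 2.44-fold. Of the rises 2 were called with arrays scaled on the median and 3 without water replicate 3. Of 27 p53 targets 6 rose and 9 fell (median -0.21). Gadd45a, a growth arrest gene, rose 2.72-fold with 1.25, 1.5, 1.49 and 1.31 with Min-U-Sil 5 and -0.20, -0.02, -0.21 and 0.20 in water, while Sesn1, Btg2 and Sesn3 fell 2.14-fold, 1.8-fold and 1.75-fold, and Mdm2 was at -0.11. With arrays scaled on the median 2 p53 targets rose and 7 fell.

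Metabolic lists moved both ways. Of 32 genes of hypoxia and glycolysis 8 rose and 8 fell. The glycolytic enzymes Pgam1 (1.68-fold), Pkm (0.81), Pgk1 (0.58) and Eno1 (0.48) rose with Pfkfb3 (1.19) and the mitochondrial Higd1a (2.06-fold). Ankrd37 (1.73-fold), Ndrg1 (1.62-fold), Car9 (-0.71) and Pdk1 (-0.69) fell. Scaling on the median left 5 rises in this list. Of 25 cholesterol genes 6 rose and 2 fell: Srebf2, a transcription factor gene of sterol control, rose 1.51-fold, and Tm7sf2 and Lpin1 fell 2.16-fold and 1.56-fold. The count of cholesterol genes that rose was 1 with arrays scaled on the median, where Srebf2 lost its call, 3 without Min-U-Sil 5 replicate 2 or 3, 2 without water replicate 2 or 3, and 0 within slide 5. Of 25 genes of fatty acid and lipid droplets 5 rose and 3 fell. Fabp5 (1.67-fold) and Acsl1 (1.41-fold) were up, and the droplet protein Plin4 (2.25-fold) and the lipid exporter Abca1 (1.84-fold) down. The rises of this list were 2 with arrays scaled on the median. In the cholesterol and the fatty acid list the share of falls was below the 13.9% of all genes, and 11.6% of all genes rose. Of measured markers of other cell types 2 of 8 for macrophages fell (Aif1 2.61-fold and Lyz2 1.76-fold), 1 of 5 for epithelium (Krt8, 1.92-fold) and 1 of 5 for endothelium (Cdh5), and 1 of 6 for adipocytes rose, Fabp4, which was well above background on only 1 of 4 water arrays and lost its call with normexp. Their part in other results was not tested.

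**Figure D4:**
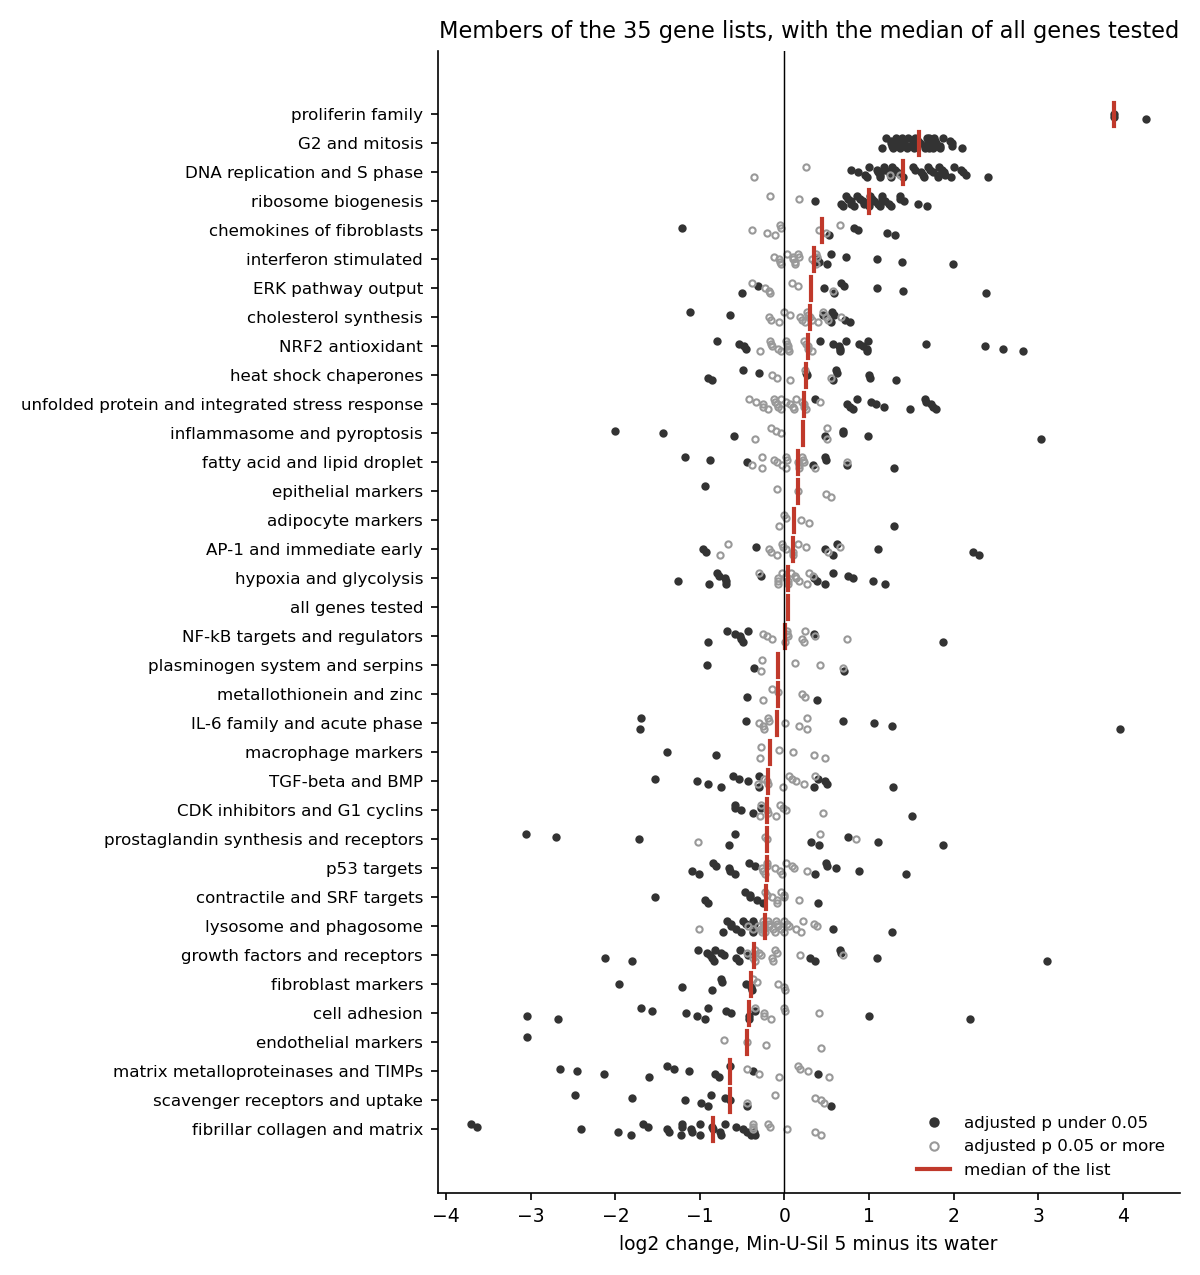
Log2 change of Min-U-Sil 5 against its water for each measured member of 35 gene lists, filled where the adjusted p is under 0.05, with a red bar at the median of the list. Lists are ordered by the median, from the proliferins (3.89) to collagen and matrix (-0.84), and the median of all genes tested (0.04) stands among them.

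The response was set against that of NM-203, an amorphous silica, at its highest dose of 5 µg/cm², to see where a crystalline silica differs from an amorphous one. The doses differ (20 and 5 µg/cm²), and Min-U-Sil 5 has its own water, while NM-203 and DE share another. Against its water NM-203 changed 10740 genes (33.1%), and 7198 were called after both silicas, 86.7% of those of Min-U-Sil 5 and 67.0% of those of NM-203, with the same sign in 7197. Across genes the changes correlated with r = 0.762, a description over genes that are not independent. The difference of the effects was tested in the same limma fit and passed for 65 genes (0.2%), 35 higher (0.108%) and 30 lower (0.0923%) after Min-U-Sil 5, with 2478 at an unadjusted p under 0.05.

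Interferon stimulated genes were lower after Min-U-Sil 5 than after NM-203. The difference passed for 11 of 24 list members, among the 30 genes that were lower, where 22 rose after NM-203 (14% of all genes did) with a median of 1.11, against 9 and 0.34 after Min-U-Sil 5. Rsad2 changed by 3.02 after NM-203 and by 1.39 after Min-U-Sil 5, a difference of -1.62 ± 0.29 (adjusted p = 0.0139). The DNA sensor gene Ifi205 differed by -2.0, Phf11c by -1.37 and Oas1g by -1.35, 3 genes with close relatives whose signal probes may share. The interferon count was 0 with arrays scaled on the median, 6 with normexp and quantile normalization, 12 with the slide as a block, and 2 to 12 when 1 array was left out. It was 2 without water replicate 1, 3 without Min-U-Sil 5 replicate 1, 4 without Min-U-Sil 5 replicate 4 or water replicate 4, and 6 without water replicate 2. Of the 4 NM-203 arrays 3 and all its water arrays were scanned on the first day and all 8 arrays here on the second.

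Genes higher after Min-U-Sil 5 than after NM-203 included some that fell after both silicas. Fmo2, a flavin monooxygenase, fell by 1.20 after Min-U-Sil 5 against a change of -3.41 after NM-203, a difference of 2.21 ± 0.43 (adjusted p = 0.024). Cytl1, Prkar1b and Cdh15 differed by 1.96, 1.69 and 1.66, and did not pass against the Min-U-Sil 5 water (-0.10, 0.20 and 0.06). The alarmin Il33 fell by 2.01 against -3.61, a difference of 1.61 (adjusted p = 0.0291). Fmo2, Cytl1, Cdh15 and Il33 were dim, with means of -3.71, -4.90, -3.85 and -3.03 in the Min-U-Sil 5 water. Whether they stood above background after NM-203 was not tested, so the sizes of these differences may be limited by signal. Genes that differed with a rise after Min-U-Sil 5 included Serpinb9g, whose size is not given since water arrays did not measure it, Gsta3 (2.37 against 1.14) and Gpnmb (1.27 against -0.07). The cell cycle, ribosome and matrix lists held no gene that differed, although their medians were larger in size after NM-203 (2.01, 1.81, 1.24 and -1.24 for mitosis, S phase, ribosome making and matrix). With arrays scaled on the median 3 genes differed, none of them with a symbol, and 17 to 182 when 1 array was left out. The count was 17 without Min-U-Sil 5 replicate 1 or water replicate 1, 20 without Min-U-Sil 5 replicate 4, 33 and 34 without water replicates 2 and 4, and 182 without Min-U-Sil 5 replicate 3.

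Diatomaceous earth at 5 µg/cm², the other particle of the study, changed 327 genes against its water (1.01%). Of these 257 were also called after Min-U-Sil 5, 78.6% of the DE genes and 3.10% of those of Min-U-Sil 5, with the same sign in 251. The effects of Min-U-Sil 5 and DE differed for 3421 genes (10.5%), 1821 higher (5.6%) and 1600 lower (4.92%) after Min-U-Sil 5, and for 1002 with arrays scaled on the median. Doses again differ.

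Ribosome and replication genes were called higher than after DE. Of the ribosome list 26 of 30 were higher after Min-U-Sil 5 than after DE, where the median was 0.00. S phase genes differed in 34 of 41 (DE median 0.21, 0 called) and mitosis genes in 19 of 46 (DE median 0.78, 22 called higher, against 0.557% of all genes). With arrays scaled on the median these counts were 17, 22 and 2. Atp13a4 was higher than after DE (adjusted p = 0.000172), with no size given since it was not well above background in water. Prl2c3 and Prl2c5 differed by 3.34 and 2.98. Bpifb9b, well above background on 2 of 4 water arrays, was also higher than after DE, but its change against water was 0.24 within slide 4 and 3.15 within slide 5, and leaving out 1 array ended that call except for water replicates 2 and 3 (log2 change 0.86 without water replicate 4). Slco2b1, Spib and Ces1d were lower after Min-U-Sil 5, with differences of -3.78, -3.54 and -3.21, as was Apobec2, of which only a bound is known after Min-U-Sil 5. Of the stress lists 14 of 35 genes differed in each (7 for NRF2 and 8 for the stress response with arrays scaled on the median), and of the matrix list 15 of 35, Postn among them (-3.70 against -0.86).

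Some rises of Min-U-Sil 5 were not separable from those of DE. Saa3 changed by 3.43 after DE and by 3.97 after Min-U-Sil 5, a difference of 0.55 ± 0.39 (adjusted p = 0.501). Of the interferon list 11 of 24 rose after DE (0.557% of all genes did) with a median of 0.58, against 9 and 0.34 after Min-U-Sil 5, and 2 differed. Rsad2 changed by 1.33 after DE and differed by 0.06 ± 0.29, and Gpnmb by 1.01 with a difference of 0.26 ± 0.28. A missed threshold does not show that these genes respond alike.

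**Figure D5:**
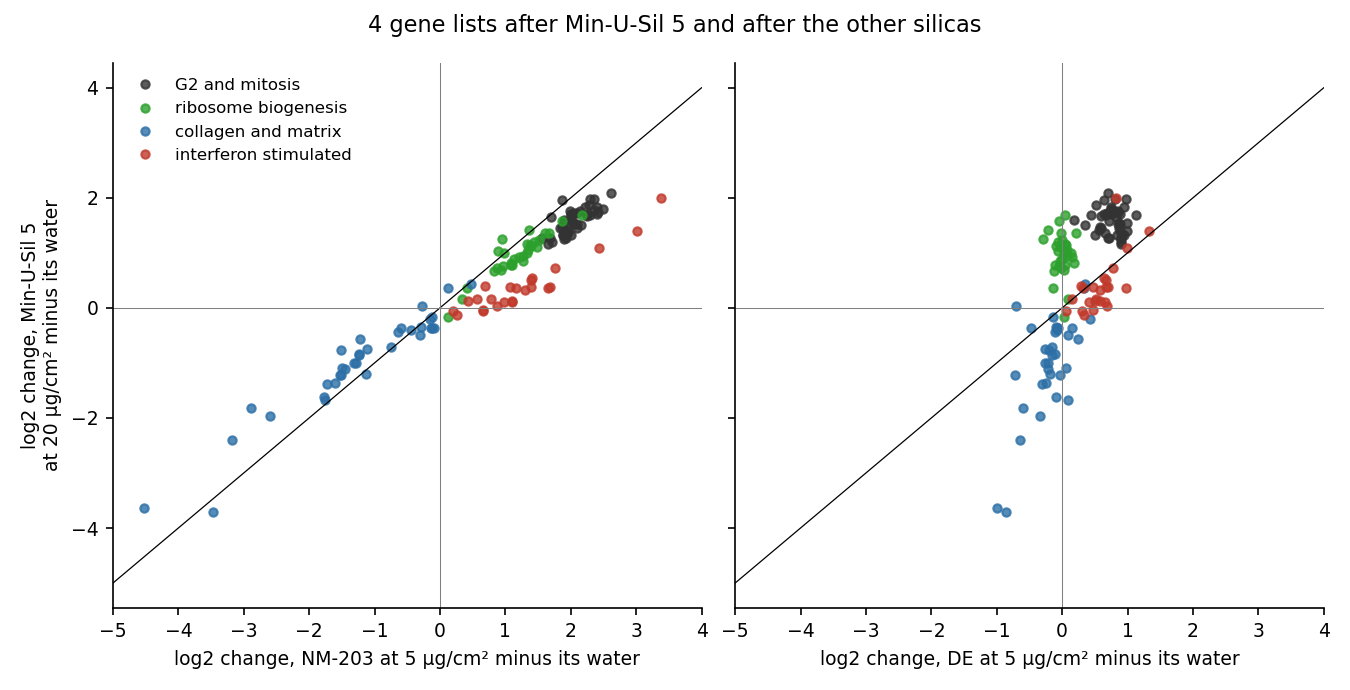
Log2 change after Min-U-Sil 5 at 20 µg/cm² against that after NM-203 (left) and DE (right), both at 5 µg/cm², Min-U-Sil 5 against its own water and the others against theirs, for the measured members of 4 gene lists, with the line of equality. On the left most genes lie near the line and the interferon stimulated genes below it, and on the right the ribosome genes stand near 0 after DE.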

How the data were processed

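RNA of 36 samples was measured on 1-colour Agilent arrays, 1 array each. Per the file headers and the submitters' processing notes, the authors read the intensity of each spot using Agilent Feature Extraction 11.0.1.1, which subtracts background and corrects spatial trends. The deposited intensity values are not normalized between arrays. The series' value table holds deposited log2 values centred on each probe's median over arrays, with a column median of -0.25 to 0.27. The scaling behind them is not given in the sources used here. Its values were used as an alternative: the scanner files of Min-U-Sil 5 replicates 1, 2 and 3 correlated with its columns of replicates 2, 3 and 1 (r of 0.9999, 0.9999 and 0.9998), so those numbers differ between the sources while the group does not.

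Log2 intensity was scaled by subtracting each array's 75th percentile over non-control spots, outlier spots were left out and spots of a probe were averaged. A probe was kept if 3 or more of the 4 arrays of some group had it well above background (40679 probes). Of 56605 probes 32989 were named through the RefSeq gene table (assembly GRCm38.p6) and 23616 were not. The 32492 gene names tested (17864 with a symbol) were fitted with limma 3.58.1 (R 4.3.3) over all 9 groups, 27 residual degrees of freedom, so the 7 other groups inform the spread. The code was tested on simulated data. Figures used Python 3.11.15 and matplotlib 3.10.9.

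Genes were named by rule: the 15 highest and 15 lowest changes among called genes without overlap; up to 4 members with the smallest p per list; the 4 highest and 4 lowest differences for each other silica, predicted genes (Gm and Rik symbols) left out here and among the 15; and Car6, Saa3, Prl2c3 and Txnrd1. Other list members are given as values, and a few named items are not reported here. The members and lists were chosen with earlier results of these data known. A bound ("at least") sets the bright group's mean against the lowest signal well above background in the dim group.

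The 8 arrays had a 75th percentile of 846 to 1542 intensity units, with 63.6 to 76.2% of probes well above background and no saturated probe. Replicate numbers were not taken to pair the samples: deviations of same-numbered arrays correlated with r of -0.37, 0.33, -0.60 and -0.36, and of 0.53, 0.30, 0.15 and -0.36 with the value table's numbers, while arrays sharing a slide had r of 0.15 to 0.62.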

Additional observations from a re-analysis of the deposited data

Results flagged for a closer look

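In a few genes 1 array of a group of 4 stood apart from the other 3. A gap this large relative to the range of the group arises by chance in about 1 in 20 groups, and the genes named by rule were looked at in both groups. Values are log2 intensities relative to the 75th percentile of the array. Min-U-Sil 5 replicate 1 had Tpx2 at 1.93 against 2.17 to 2.19 on the other arrays. Min-U-Sil 5 replicate 2 had Cacna1g at -3.10 against -2.70 to -2.64, Des at -1.87 against -2.35 to -2.29 and Gsta2 at 0.95 against 1.13 to 1.17 on the other arrays. On the same array stood Ncam1 at 0.96 against 1.27 to 1.28 and Ptgs2 at -1.41 against -0.98 to -0.93. Min-U-Sil 5 replicate 3 had Fabp4 at -4.09 against -4.41 to -4.38, Fmo2 at -5.47 against -4.75 to -4.69 and Tm7sf2 at -0.36 against -0.60 to -0.58 on the other arrays. Min-U-Sil 5 replicate 4 had Psat1 at 4.67 against 4.80 to 4.81 and Serpinb9g at -5.19 against -4.71 to -4.62 on the other arrays. Water replicate 1 had Cacna1g at 0.41 against 0.63 to 0.66, Cryab at 4.61 against 4.27 to 4.29 and Fst at -0.48 against -0.29 to -0.28 on the other arrays. On the same array stood Plaur at -0.16 against -0.51 to -0.45, Psph at 2.04 against 2.16 and Ptgs2 at -3.40 against -2.86 to -2.75. Water replicate 2 had Nlrp2 at -4.59 against -3.89 to -3.79 on the other arrays. Water replicate 4 had Higd1a at 2.86 against 2.61 to 2.65 and Rrs1 at 1.11 against 0.85 to 0.88 on the other arrays. Over all genes with 4 values the single Min-U-Sil 5 array on slide 5, replicate 3, stood apart in this way in 3897 of 32467 (12%), and all 4 arrays of the group together in 15%. In water the share was 4.19%. What sets this array apart was not tested beyond its slide. Without it 8141 genes were called against water, 182 differed from NM-203 and 3190 from DE.

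Effects against the own water differed between the silicas in the limma fit, on the log2 scale. Higher after Min-U-Sil 5 than after NM-203 were Fmo2 (2.21), Cytl1 (1.96), Prkar1b (1.69) and Cdh15 (1.66), and lower were Oas1g (-1.35), Phf11c (-1.37), Rsad2 (-1.62) and Ifi205 (-2.0). Higher after Min-U-Sil 5 than after DE were Atp13a4 (5.06), Prl2c3 (3.34), Bpifb9b (3.04) and Prl2c5 (2.98), and lower were Ces1d (-3.21), Spib (-3.54), Slco2b1 (-3.78) and Apobec2 (-4.03). The doses differ, 20 µg/cm² for Min-U-Sil 5 and 5 µg/cm² for the others, and their part was not tested. Atp13a4, Apobec2 and Bpifb9b were at background with Min-U-Sil 5 or in its water on 2 or more arrays, so their sizes are fitted values only. Background was not checked gene by gene in the NM-203 and DE groups, so the other sizes may also be limited by signal there.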

How the results depend on the processing

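Of the 148 called genes named by rule, 106 kept their call and direction under every alternative in which they were measured. Those added later are included. The 8303 calls against water ranged from 7055 to 8141 when 1 array was left out, fell to 5704 with arrays scaled on the median and to 3216 within slide 5, which holds 3 arrays, and were 6000 within slide 4, 8416 with normexp and quantile normalization, 7795 without the filter on dim probes, 9983 with array weights and 8745 with the slide as a block. A replicate block gave 2546 calls, and 4646 with Min-U-Sil 5 numbered as in the value table, an alternative chosen after seeing the data, as was the slide block on the 8 arrays alone (8410). Neither numbering had every pair's deviations correlate above 0.1, so neither was taken as a pairing. The 65 differences from NM-203 were 3 with arrays scaled on the median, 35 with normexp, and 17 (without Min-U-Sil 5 replicate 1) to 182 (without Min-U-Sil 5 replicate 3) when 1 array was left out. The 3421 differences from DE were 1002 with arrays scaled on the median and 2896 to 3276 when 1 array was left out. The cause was not tested.

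Only Cdh15, Cytl1 and Prkar1b turned sign among named genes, and none of them was called against water. Cdh15 was at -0.0102 with normexp, -0.0034 with the slide as a block, -0.0762 with that block on the 8 arrays alone, -0.55 within slide 5, and -0.18 to 0.30 when 1 array was left out. Cytl1 was at 0.10 within slide 4, 0.0097 with array weights and -0.23 to 0.0918 when 1 array was left out, and Prkar1b at -0.0411 within slide 5. With arrays scaled on the median Acsl1, Cdkn2c, Ifi205, Klf2, Mt1, Mt2, Serpinh1, Srebf2 and Tpm4 lost their call, and with the median of a gene's probes Btg2, Fmo2, Mt1 and Myh9 did. Ifi205 and Bpifb9b lost it in most fits that left out 1 array. The median of the NF-kB list was -0.01 with scaling on the median and -0.02 with normexp, and that of the plasminogen list 0.03 with normexp. Genes near the background, as those given only as a bound, are limited by signal.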

Other observations

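Among genes that differed between Min-U-Sil 5 and NM-203, some lie outside the lists and are named here after their values were seen. Slc40a1, the iron exporter ferroportin, changed by 0.18 after Min-U-Sil 5 and by -0.89 after NM-203, a difference of 1.07 on the log2 scale. Hspa12a, a distant Hsp70 relative, was at -0.14 and -1.72, a difference of 1.57. Mgp, a matrix protein that restrains calcification, was at -0.60 and -1.33, and Mep1a, a secreted metalloprotease, at 2.24 and 1.28. The interferon-inducible GTPases Igtp and Tgtp2 were at 0.23 and 0.02 after Min-U-Sil 5 against 1.23 and 1.04 after NM-203, and the immunoproteasome subunit Psmb10 at 0.31 against 1.07. Psmb10, Igtp and Tgtp2 were lower by 0.76, 1.00 and 1.02 after Min-U-Sil 5.

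The slides gave unlike changes for 56 of the 5742 called genes that have a symbol. Their changes within slide 4 and slide 5 lay over 1.5 log2 units apart. In all 56 both group means were under 0, that is below the 75th percentile of the array, as most spots are by definition. The change within slide 4 was higher in 36 of them and that within slide 5 in 20. Riox1 changed by 3.39 within slide 4 and 0.14 within slide 5, and Cdh3 by 2.84 and -0.40. Arpp21 changed by 0.04 within slide 4 and 5.97 within slide 5, and Grk3 by -0.20 and 5.16. Water replicates 1 to 4 read -7.62, -7.60, -8.06 and -7.48 for Riox1. For Arpp21 water replicates 1 and 4, on slide 5, read -7.63 and -8.25. Sizes set against such dim readings are limited by signal. Which slide holds the truer value was not tested.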
